A study of Mus musculus with 16 samples.

Results

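The cytosolic ribosomal protein genes of mouse lungs bearing HKP1 tumours, HKP1 being a mouse lung adenocarcinoma line, were chosen by symbol. They were the protein-coding entries whose symbol begins with Rpl or Rps and a digit, or is Rpsa, Rplp0, Rplp1 or Rplp2, without the kinase and binding protein genes that share those letters. A level of 1 CPM (a gene's reads scaled to a common library total) or more in at least 2 libraries was also required, so levels played a part in the choice. Of 88 such genes among 30095 listed, 85 passed: 52 of the large subunit and 33 of the small subunit. The 3 below the level were Rpl39l (mean 0.126 CPM), Rpl3l (0.514 CPM) and Rpl9-ps1 (0.020 CPM), against 3.15 CPM for the lowest gene inside it.

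The 16 RNA sequencing libraries came from lungs of C57BL/6 mice, taken 24 to 48 hours after radiation of 0, 4 or 8 Gy. Mice received IgG, as the control, or an antibody that binds the checkpoint receptor PD-1, called anti-PD-1. The groups were IgG at 0 Gy (3 libraries), 4 Gy (2) and 8 Gy (3), and anti-PD-1 at 0 Gy (2), 4 Gy (3) and 8 Gy (3). All groups bore the tumour, and each library pooled 3 to 4 mice, so it mixes RNA of tumour, lung and immune cells. Fewer cells of a type and less RNA per cell cannot be told apart in such libraries. The lung epithelium genes Sftpc, Sftpb, Scgb1a1 and Ager were present in every library, with a summed level of 1487 to 22644 CPM.

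A ribosome joins a small subunit, which reads the messenger RNA, to a large subunit, which forms the peptide bond, and most of their proteins are made from single intron-bearing genes at matched rates. Messenger RNAs of these genes begin with a run of pyrimidines that places their translation under mTOR and the protein Larp1. Mammalian genomes also carry very many processed pseudogenes of ribosomal protein genes, which are intronless copies made from reverse-transcribed messenger RNA. A few members have paralogs, and one of these, Rps27l, is known as a target of p53, the transcription factor that responds to DNA damage.

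A single read was worth 0.0155 to 0.0418 CPM, a measure of depth, and 3 reads, the floor for a gene with none, came to at most 0.125 CPM, which covers counting error only. Replicates 2 and 3 of anti-PD-1 at 4 Gy stood apart. They lacked reads for 6086 and 5315 genes, where the other 14 libraries lacked them for 2273 to 3851. Their single reads were worth 0.0418 and 0.0319 CPM, and those of the other 14 libraries 0.0155 to 0.0334 CPM. By depth, replicate 3 thus lay within the range of the other 14. Counts of genes called that rest on these 2 libraries are given with and without them in most comparisons. Without them only replicate 1 is left in anti-PD-1 at 4 Gy. A call lost in such a fit does not show that a difference is absent.

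Most of the members are matched almost base for base by copies elsewhere in the genome. Copies were listed genes matching an intron-bearing ribosomal protein gene's coding sequence with at least 90% identity over at least 80% of its length. Only annotated pseudogenes and ribosomal protein genes with a single-exon transcript could count, each assigned to its best-matching gene. There were 815 of these, 810 of them annotated as pseudogenes, a share that the rule largely sets. Of the 85 members, 77 had at least 1. Rps27, which encodes a zinc-finger protein of the small subunit, shows how close they can be. Its 255 coding bases are given here with the 8 bases around each of its 3 exon junctions in capitals, followed by those of its paralog Rps27l with the bases that differ from Rps27 in capitals. All sequences of coding regions are from GENCODE M21 (GRCm38).

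Rps27: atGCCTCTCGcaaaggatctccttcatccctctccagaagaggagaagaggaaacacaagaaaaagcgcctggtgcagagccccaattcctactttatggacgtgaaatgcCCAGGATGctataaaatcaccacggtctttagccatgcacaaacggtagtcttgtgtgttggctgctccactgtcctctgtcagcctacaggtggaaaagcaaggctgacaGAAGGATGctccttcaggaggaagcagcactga
Rps27l: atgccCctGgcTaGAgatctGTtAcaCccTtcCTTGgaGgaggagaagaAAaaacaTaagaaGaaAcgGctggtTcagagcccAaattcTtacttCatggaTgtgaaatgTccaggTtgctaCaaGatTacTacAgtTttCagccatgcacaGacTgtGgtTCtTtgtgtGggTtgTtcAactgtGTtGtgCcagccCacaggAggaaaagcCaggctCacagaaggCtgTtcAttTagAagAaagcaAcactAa

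Rps27 lies on the minus strand at chr3:90212522-90213651 (mm10) and has 4 exons. The whole coding sequence above also occurs, base for base, in the single-exon gene Rps27rt on the minus strand at chr9:114982366-114982739, so a read inside it differs between them only by the spliced gap or by untranslated bases. Rps27l, on the plus strand at chr9:66946086-66949516, differs from Rps27 at 61 of 255 coding bases (76.1% identity), enough to keep the reads of this pair apart.

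The next set shows a member with a copy that differs by a single base in the stretch printed, then a member whose top copy, 97.4% identical over the aligned coding bases, differs at 7 bases of the stretch printed. The stretches are coding bases 236 to 296 of Rpl9 (chr5, a large subunit protein) with its copy Rpl9-ps6 (chr19), and coding bases 190 to 310 of Rplp0 (chr5, the scaffold of the ribosomal stalk) with its copy Gm9625 (chr13). Differing bases are in capitals.

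Rpl9: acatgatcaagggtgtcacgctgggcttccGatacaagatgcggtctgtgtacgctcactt
Rpl9-ps6: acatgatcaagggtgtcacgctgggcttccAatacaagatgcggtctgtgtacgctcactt
Rplp0: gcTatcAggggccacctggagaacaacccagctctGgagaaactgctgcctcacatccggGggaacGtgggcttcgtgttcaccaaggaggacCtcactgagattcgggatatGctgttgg
Gm9625: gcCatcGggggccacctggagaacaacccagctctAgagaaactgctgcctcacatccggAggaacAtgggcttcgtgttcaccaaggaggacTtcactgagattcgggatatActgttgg

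The deposited values placed very different shares of the reads on the gene with introns. Rps27 had a mean of 3.15 CPM, which was 0.545% of the reads on Rps27 and its copies together, while Rps27rt had 574 CPM. Rpl9 held 2.59% of its reads, whereas Rplp0, with 1817 CPM, held 87.5%. Across the 81 members with introns, 17 held under 10% and 53 under 50%, and 9 held over 90%. The 21 members whose top copy was identical over the aligned coding bases held 0.545 to 99.3% (median 14.5%), and the 44 whose top copy was 98 to under 100% identical held 0.773 to 83.3% (median 36.2%). The 12 whose top copy was less than 98% identical held 40.4 to 98.8% (median 87.7%). Rps3, Rpl8 and Rplp2 were among those that had no copy by this definition and kept 100% of theirs.

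**Figure D1:**
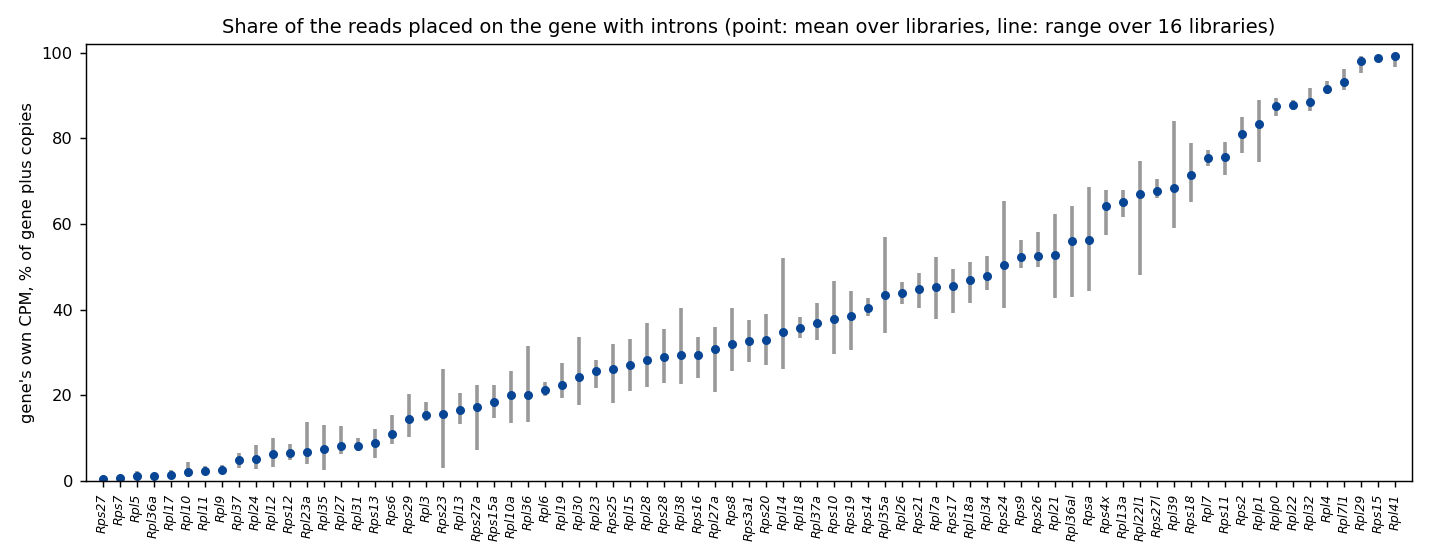
Share of the reads on each of the 77 ribosomal protein genes with introns and at least 1 copy, as a percentage of the reads on the gene and its copies together (vertical axis), ordered from the lowest. Points are means over the libraries and lines the range over 16 libraries. Rps27 stands at 0.545% at the left, and 53 of the genes lie under 50%.

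In each library the copies outside the 85 held 20768 to 31669 CPM, or 49.7 to 55.5% of the reads on members and copies. The members themselves summed to 18237 to 31867 CPM, which was 2.08 to 3.51% of all listed reads. By group the sum was 21194, 19374 and 23338 CPM with IgG at 0 Gy. With IgG it was 18556 and 21743 at 4 Gy, then 25314, 21757 and 20686 CPM at 8 Gy. With anti-PD-1 it was 20679 and 18237 CPM at 0 Gy. The libraries at 4 Gy had 22941, 31867 and 28313 CPM, and those at 8 Gy had 23637, 21622 and 23459 CPM. The 2 libraries that stood apart were the 2 highest, and the other 14 stayed between 18237 and 25314 CPM. With IgG the 3 doses overlapped, and with anti-PD-1 both libraries at 0 Gy lay below all at 8 Gy, a difference in sums that was not tested. The large subunit sum exceeded the small subunit sum 1.41 to 1.55 times, with the lowest ratios, 1.41 and 1.42, in those same 2 libraries.

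**Figure D2:**
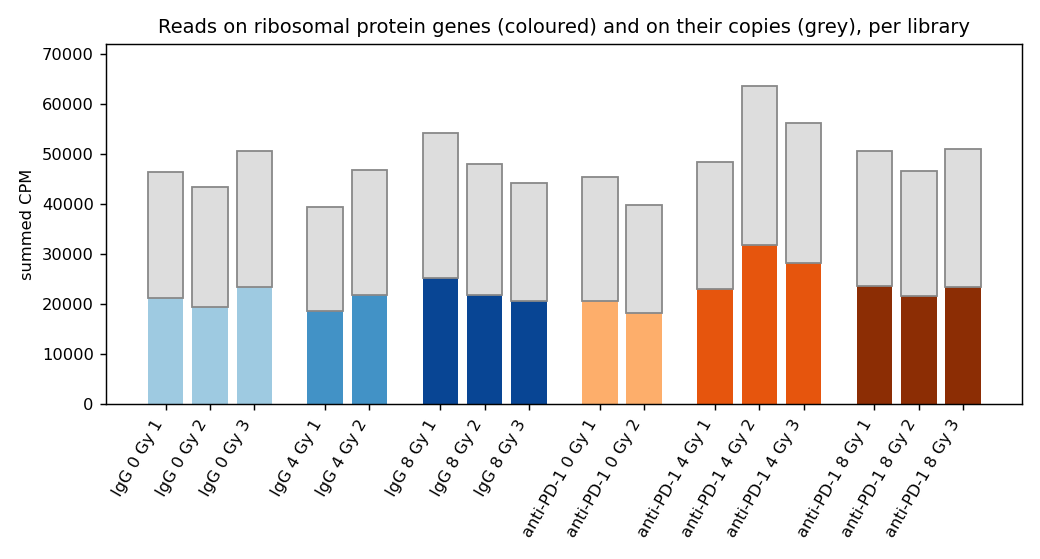
Summed CPM per library (vertical axis) of the 85 ribosomal protein genes (coloured by group) with the CPM of their copies outside the 85 stacked above (grey). The members' sums lie between 18237 and 31867 CPM, with replicates 2 and 3 of anti-PD-1 at 4 Gy highest.

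Levels differed greatly between members. By mean CPM the highest were Rplp0 (1817), Rpl4 (1361), Rpsa (1144, the laminin receptor homologue of the small subunit), the intronless Rpl10-ps3 (969) and Rplp1 (934, a stalk protein). The lowest were Rps27 (3.15), Rpl35 (3.34), Rpl36a (3.75), Rps7 (5.62) and Rpl17 (9.68). Per kilobase of transcript, the scale on which genes can be compared, the members spanned a 531-fold range. With each gene's copies added, the range fell to 51.2-fold. The lengths are those of 1 GENCODE transcript per gene, with a median of 681 bases and 5 exons.

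The start sites were examined for the pyrimidine run, since it is a known feature of these messages. Of the 85 members, 62 had a RefSeq promoter entry (GRCm38.p6), in which a run of 8 or more bases that are all C or T was sought within 15 bases of the start on the gene's strand. It was found in 27 of 62 members (43.5%), and in 13.9% of all genes with an entry. On the other strand it was found in 3 members (4.84%), against 15.3% of all genes. The hexamer CTTTCC, which can lie within such a run, was found on the gene's strand in 10 members (16.1%) and 1.67% of all genes. These matches describe the annotated starts and are no evidence of regulation here. Below are 30 bases before to 20 after the start, with the runs in capitals, for the paralog pair and for 2 members described further on.

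Rps27: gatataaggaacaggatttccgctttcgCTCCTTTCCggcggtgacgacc
Rps27l: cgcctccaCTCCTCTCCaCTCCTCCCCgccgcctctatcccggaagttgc
Rpl28: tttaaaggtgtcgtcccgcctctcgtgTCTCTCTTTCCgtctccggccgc
Rpl22l1: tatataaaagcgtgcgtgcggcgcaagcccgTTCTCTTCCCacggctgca

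These lie at chr3:90213629-90213678 (Rps27, minus strand), chr9:66946056-66946105 (Rps27l, plus), chr7:4792935-4792984 (Rpl28, plus) and chr3:28805478-28805527 (Rpl22l1, plus). The run spans the annotated start in Rps27 and Rpl28 and begins just after it in Rpl22l1, and in Rps27l both runs end before it. Rps27l has another annotated start, without a run and not printed here. All starts printed here carry a run, while those of Rps16, Rpsa and Rpl10a, also not printed, carry none.

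Differences between groups are given on the log2(CPM + 0.5) scale with their standard error. Beside them stands the Benjamini-Hochberg adjusted p of limma over all 17546 genes tested. A gene is said to have risen or fallen where that p was under 0.05. Counts at an unadjusted p under 0.05 are given for members only. The share of all genes at that level is not given here, so these counts do not show an excess among members. At 8 Gy against 0 Gy, over both antibodies, 4 of 85 members rose, with 4.68% of all genes tested rising, and 3 fell, with 16.1% of all genes falling. The members that rose were Rps27l, Rps24, Rpl36a-ps1 and Rpl31, and those that fell were Rpl10, Rpl10a and Rps27. Of the 85 differences 68 were above 0, and their median was 0.15, beside -0.09 for all genes. The share of all genes above 0 is not given here, and members share each library's scaling, so their signs are not independent.

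Rps27l, a small subunit paralog that p53 is known to induce, had 25.1, 25.1 and 24.3 CPM with IgG at 0 Gy and 27.1 and 26.2 CPM with anti-PD-1 at 0 Gy. At 8 Gy it had 31.9, 27.3 and 33.8 CPM with IgG and 36.2, 31.8 and 31.8 CPM with anti-PD-1. All 6 libraries at 8 Gy were above all 5 at 0 Gy, though the lowest of the one and the highest of the other were 27.3 and 27.1 CPM. It rose by 0.31 ± 0.09 (adjusted p = 0.0301). At 4 Gy it had 28.1 and 29.7 CPM with IgG, between the other doses except for 1 library at 8 Gy, and 26.8, 32.6 and 33.1 CPM with anti-PD-1, overlapping both. Its differences from 4 Gy to the other doses did not pass the test (adjusted p = 0.132 against 0 Gy and 0.408 against 8 Gy). Leaving out 1 library at a time kept the difference between 0.28 and 0.35, but the call was lost for 6 of the 16 omissions (adjusted p of 0.0177 to 0.0976), and without the filter on low values (adjusted p = 0.0532). It was also lost with a replicate block (adjusted p = 0.062). The p53 targets Cdkn1a, which halts the cell cycle, and Mdm2, which degrades p53, rose by 1.63 ± 0.13 (adjusted p = 5.09e-05) and 0.36 ± 0.12 (adjusted p = 0.0489) in the same comparison.

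Rps24, a small subunit protein whose gene is mutated in some patients with Diamond-Blackfan anaemia, had 328, 311, 412, 306 and 320 CPM at 0 Gy and 430, 440, 394, 468, 445 and 431 CPM at 8 Gy, so that 1 library at 0 Gy reached into the range of the 8 Gy libraries. It rose by 0.40 ± 0.12 (adjusted p = 0.0345), a call kept in 8 of 16 omissions of 1 library and lost in an additive model of dose and antibody (0.36, adjusted p = 0.139). Rpl31, of the large subunit near the exit tunnel, rose by 0.33 ± 0.11 (adjusted p = 0.0446), from 25.7 to 29.6 CPM at 0 Gy to 28.3 to 41.0 CPM at 8 Gy. Its call was kept in 5 of 16 omissions, and lost with a replicate block (adjusted p = 0.081) and without the filter (adjusted p = 0.0711). The intronless Rpl36a-ps1 rose by 0.42 ± 0.14 (adjusted p = 0.042), a call kept in 10 of 16 omissions and lost with a replicate block (adjusted p = 0.0607) and in the additive model (adjusted p = 0.0515). The 2 libraries that stood apart are at 4 Gy and enter here only through the shared estimate of spread: without them the differences of Rpl31 and Rpl36a-ps1 stayed at 0.33 and 0.42 and the adjusted p rose to 0.0533 and 0.0528. In that fit 3 members rose, with 5.15% of all genes, and 3 fell, with 16%, and Rps23 was called in their place (0.64 ± 0.20, adjusted p = 0.0379).

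The 3 members that fell held 2.11% (Rpl10), 20.0% (Rpl10a) and 0.545% (Rps27) of the reads on their families. Rpl10, a large subunit protein next to the peptidyl transferase centre, had 25.5, 22.7 and 19.9 CPM with IgG at 0 Gy and 36.8 and 42.5 CPM with anti-PD-1 at 0 Gy, then 9.30, 9.88 and 12.5 CPM with IgG and 11.98, 17.04 and 22.3 CPM with anti-PD-1 at 8 Gy. Within each antibody all libraries at 8 Gy lay below all at 0 Gy. Its difference was -1.15 ± 0.23 (adjusted p = 0.00424), and within IgG alone -1.07 ± 0.31 (adjusted p = 0.04). Rpl10-ps3, the intronless gene on chr9 with the same coding bases, had 865 to 1097 CPM over the libraries. With copies added, Rpl10 had a mean of 1005 ± 70 CPM (SD, n = 5) at 0 Gy and 1023 ± 60 CPM (SD, n = 6) at 8 Gy, a difference of 0.02 ± 0.08 (adjusted p = 0.904).

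Rpl10a, a large subunit protein of the L1 stalk, had 168, 126, 146, 196 and 158 CPM at 0 Gy and 105, 81.3, 100, 108, 121 and 137 CPM at 8 Gy. It fell by 0.58 ± 0.11 (adjusted p = 0.0038), and the difference was -0.13 ± 0.09 with copies added (adjusted p = 0.345). Rps27 had 3.93, 2.99, 3.57, 3.44 and 3.48 CPM at 0 Gy and 2.07, 2.34, 1.71, 2.10, 2.66 and 3.02 CPM at 8 Gy. It fell by 0.51 ± 0.15 (adjusted p = 0.0251), and with copies added the difference was 0.11 ± 0.13 (adjusted p = 0.586). Under quantile normalization the fall of Rps27 lost its call (adjusted p = 0.307).

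When the copies of each of the 81 members with introns were added to it and the test was run over 17351 genes, Rps27l was the only member called at 8 Gy against 0 Gy (0.31 ± 0.09, adjusted p = 0.0206). In that fit 4.75% of all genes rose and 16.3% fell. The differences of the 81 then ran from -0.14 to 0.34, where those of the 85 members' own values ran from -1.15 to 0.64. Of the 81, 78 were above 0 with a median of 0.13. The share of all genes above 0 and their median in that fit are not given, so the count of signs shows no excess among members. How the reads were assigned between a gene and its copies is not given in the sources used here, and its part in the falls was not tested beyond this sum.

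**Figure D3:**
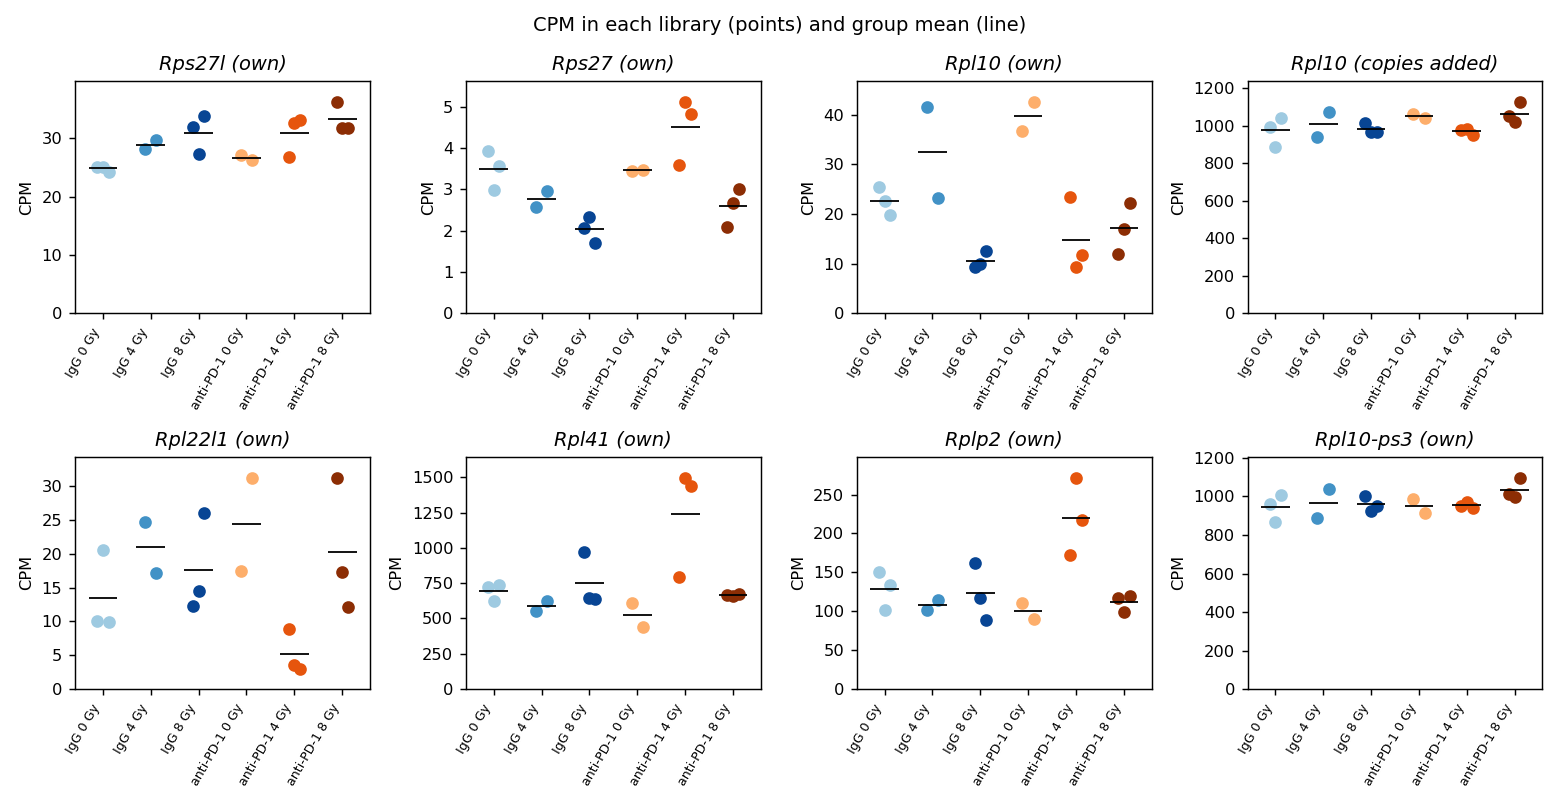
CPM in each library (points, vertical axis from 0) and group means (lines) for 7 members, with Rpl10 shown both by its own reads and with its copies added. Rps27l at 8 Gy lies above 0 Gy, Rpl10 falls by its own reads and lies between 888 and 1125 CPM with copies added, and Rpl22l1, Rpl41 and Rplp2 stand apart in anti-PD-1 at 4 Gy.

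**Figure D4:**
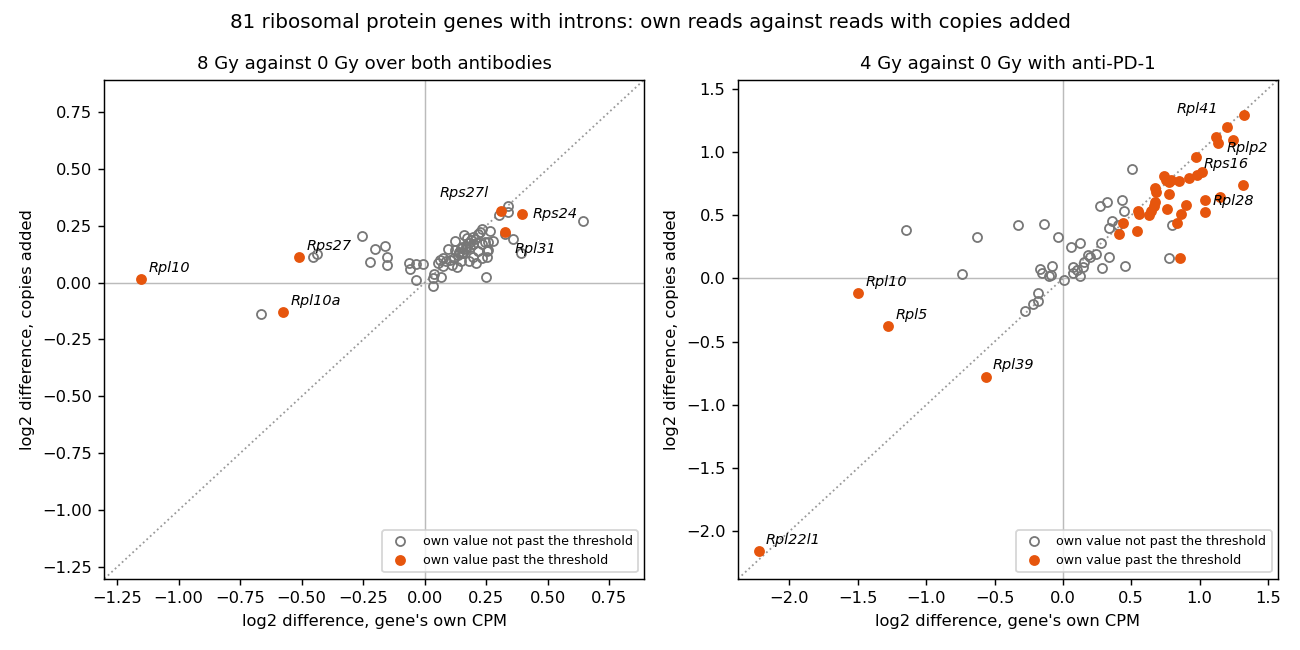
Log2 difference of the gene's own CPM (horizontal) and of the CPM with copies added (vertical) for the 81 genes with introns, at 8 Gy against 0 Gy (left) and at 4 Gy against 0 Gy with anti-PD-1 (right). Filled points passed the test by their own reads. Rps27l and Rpl22l1 lie close to the dotted line of equal values, and Rpl10 lies far from it in both panels.

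At 4 Gy against 0 Gy over both antibodies, 2 members rose, with 5.33% of all genes rising, and 0 fell, with 12.2% falling. At an unadjusted p under 0.05 the count was 26 of 85. Those that rose were Rpl28 (0.51 ± 0.14, adjusted p = 0.0324), a protein of the large subunit surface, and Rps24 (0.39 ± 0.13, adjusted p = 0.0492). The call was kept in 10 of 16 omissions of 1 library for Rpl28 and in 3 of 16 for Rps24. Rpl28 had 160, 131 and 176 CPM with IgG and 138 and 103 CPM with anti-PD-1 at 0 Gy, and 133 and 174 CPM with IgG and 204, 284 and 254 CPM with anti-PD-1 at 4 Gy. The libraries with IgG overlapped and those with anti-PD-1 did not. Without the 2 libraries that stood apart 0 members were called, with 0.519% of all genes called in either direction and 1 member at an unadjusted p under 0.05. With copies added Rpl36al, a paralog of Rpl36a, was the member that rose (0.39 ± 0.11, adjusted p = 0.0427), beside 5.45% of all genes rising and 12.6% falling.

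At 8 Gy against 4 Gy over both antibodies, 5 members rose, beside 17% of all genes, and 4 fell, beside 17.2%. Rpl4 and Rpl7, large subunit proteins that contact the ribosomal RNA core, rose by 0.26 ± 0.08 (adjusted p = 0.0289) and 0.31 ± 0.10 (adjusted p = 0.0314). Rpl31 rose by 0.32 ± 0.11 and Rps27a, which is made as a fusion with ubiquitin, by 0.57 ± 0.21 (adjusted p = 0.0463). Rps23, a protein of the decoding centre, rose by 0.84 ± 0.31 (adjusted p = 0.049). The falls were those of Rpl10a (-0.51 ± 0.11), Rps27 (-0.53 ± 0.15), Rpl35 (-0.72 ± 0.25) and Rpl10 (-0.63 ± 0.23). With 1 library left out, Rpl10a kept its call in 16 of 16 omissions and Rps27 in 15. Rpl4 and Rpl7 kept theirs in 11, Rpl31 in 10 and Rpl35 in 8. Rpl10 and Rps27a kept theirs in 5, and Rps23 in 4. Without the 2 libraries that stood apart 0 members rose, with 2.57% of all genes, and Rpl10 and Rpl10a fell, with 9.97%. With copies added 4 rose (Rpl5, Rpl4, Rpl7 and Rps15a), beside 17.3% of all genes, and 0 fell, beside 17.4%. In that fit 12 members had an unadjusted p under 0.05 by limma.

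Anti-PD-1 against IgG over all doses gave 0 members called by limma, with 0.234% of all genes called. At an unadjusted p under 0.05 by limma there were 17 members, with no share of all genes to set beside them here. Of the 85 differences 76 were above 0 (share of all genes not given), with a median of 0.12, beside 0.01 for all genes. They include anti-PD-1 at 4 Gy, with the libraries that stood apart and had the highest members' sums. The count and median without those libraries are not given in numbers here. The lowest p belonged to Rpl12 (0.57 ± 0.15, adjusted p = 0.08) and Rpl27a (0.52 ± 0.14, adjusted p = 0.0908), both of the large subunit. Rpl12 had 24.5, 22.6 and 23.1 CPM with IgG at 8 Gy and 39.9, 51.1 and 57.8 CPM with anti-PD-1 at 8 Gy, ranges that did not overlap, while those at 0 Gy and at 4 Gy did. Rpl12 held 6.26% of its reads, and with copies added its difference was 0.16 ± 0.10 (adjusted p = 0.388).

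Within single arms few members were called outside anti-PD-1 at 4 Gy. At 8 Gy against 0 Gy with IgG 0 rose, beside 1.44% of all genes, and Rpl10a, Rpl10 and Rps27 fell, beside 9.12%. With anti-PD-1 the same doses gave 0 called, beside 2.83% of all genes, and 11 members at an unadjusted p under 0.05. At 4 Gy against 0 Gy with IgG 0 were called, beside 0.0057%, and 0 members had an unadjusted p under 0.05. With IgG, 8 Gy against 4 Gy gave 0 that rose, beside 1.64%, and Rpl10 (-1.53 ± 0.35, adjusted p = 0.0195) and Rpl10a (-0.66 ± 0.17, adjusted p = 0.0336) fell, beside 5.94%. Anti-PD-1 against IgG gave 0 called at 0 Gy, beside 0.274%, with 7 members at an unadjusted p under 0.05. At 8 Gy it gave 0 called, beside 0.0057%, with 6 members at an unadjusted p under 0.05.

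In anti-PD-1 at 4 Gy against anti-PD-1 at 0 Gy, 37 of 85 members rose and 4 fell, while 13.4% of all genes rose and 25.9% fell. The median difference of the members was 0.41, beside -0.13 for all genes. The strongest rises by p were those of Rpl28 (1.04 ± 0.20), Rpl41 (1.20 ± 0.25), a very short basic protein of the large subunit, Rplp2 (1.12 ± 0.24), Rps24 and Rps16. The falls were those of Rpl5, Rpl22l1, Rpl10 and Rpl39. With copies added the counts were 39 and 3 of 81, beside 13.4% and 26.3% of all genes. Leaving out the 2 libraries that stood apart keeps only replicate 1 of this group, so calls are then lost among all genes too. Without the 2 libraries that stood apart 0 members were called, beside 0.16% of all genes, with 14 members at an unadjusted p under 0.05 and a median of 0.13.

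Rpl41 had 722, 623 and 736 CPM with IgG and 612 and 441 CPM with anti-PD-1 at 0 Gy. In anti-PD-1 at 4 Gy it had 791, 1496 and 1439 CPM, of which the first lay within the 441 to 970 CPM of the other groups and the other 2 above it. Rplp2, a stalk protein that helps to recruit translation factors, had 172, 272 and 217 CPM there, against 89.4 to 162 CPM in the other 13 libraries. Rpl22l1, the paralog of Rpl22 that can stand in for it in the ribosome, moved the other way. It had 8.94, 3.63 and 2.91 CPM in anti-PD-1 at 4 Gy and 9.86 to 31.2 CPM in the other 13 libraries. Its difference from 0 Gy with anti-PD-1 was -2.23 ± 0.49 (adjusted p = 0.00614 by limma). Without the 2 libraries, with only replicate 1 left at 4 Gy, it was -1.34. For Rplp2 and Rpl22l1 all 3 libraries of the group lay outside the range of the other 13, with replicate 1 nearest to it.

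Both libraries that stood apart exceeded each of the other 14 libraries in 44 of 85 members (51.8%), which was so for 12.6% of the 17546 genes tested. They lay below all the others in 4 members (Rpl5, Rpl22l1, Rps23 and Rps27a), or 4.71%, beside 24.4% of all genes. Those 2 libraries also had the largest numbers of genes with no reads. The lung epithelium sum ran from 15150 to 22644 CPM in anti-PD-1 at 4 Gy and from 4076 to 7159 CPM in anti-PD-1 at 0 Gy, with 3 of 4 rising. Summed red cell genes ran from 15532 to 30109 CPM and from 2372 to 3214 CPM in the same groups, and the neutrophil genes S100a8 and S100a9 both fell. Other summed markers that did not overlap between anti-PD-1 at 0 Gy and at 4 Gy were macrophages (3204 to 4399 and 4747 to 6095 CPM), endothelium (156 to 217 and 246 to 366 CPM), cycling cells (541 to 569 and 306 to 389 CPM) and skeletal and heart muscle (31.4 CPM or more and 9.48 to 18.8 CPM). Of the genes tested, 3 of 4 macrophage genes rose, 0 of 2 endothelial genes were called, both cycling genes fell, and of 6 muscle genes 4 fell and 1 rose. In this comparison 13.4% of all genes rose and 25.9% fell. Sums that overlapped were those of T cells (118 to 217 and 147 to 199 CPM), Epcam with Krt8 (650 to 936 and 493 to 657 CPM) and the leukocyte gene Ptprc (131 to 180 and 125 to 252 CPM). The part of depth and of cell make-up in the members' differences was not tested.

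The other comparisons that use this group followed it. At 8 Gy against 4 Gy with anti-PD-1, 10 members rose and 21 fell, beside 24.4% and 17.5% of all genes, and without the 2 libraries limma called 0, as it did 0% of all genes, with 0 members at an unadjusted p under 0.05. Rplp2 (-0.95 ± 0.22, adjusted p = 0.00543), Rps21, Rps15, Rpl41 and Rpl28 fell with the lowest p, and Rpl22l1 (1.92 ± 0.44, adjusted p = 0.0056), Rps23, Rpl39, Rps27a and Rpl7 rose. Anti-PD-1 against IgG at 4 Gy gave 20 higher and 2 lower, beside 6.9% and 8.57%. Rps21, Rps16, Rplp2, Rps15 and Rpl27a were higher with the lowest p, and Rpl22l1 and Rpl10 lower. Without the 2 libraries limma called 0 members and 0% of all genes, with 2 members at an unadjusted p under 0.05. These comparisons share libraries, so their likeness is no independent finding.

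The test of the difference between antibodies in the effect of 4 Gy against 0 Gy called 10 members with a larger difference under anti-PD-1 and 3 with a smaller one, beside 3.76% and 5.32% of all genes, and 0 members and 0% without the 2 libraries, when 13 members had an unadjusted p under 0.05. For 8 Gy against 0 Gy it called 0 members and 0% of all genes, with 0 members at an unadjusted p under 0.05. For 8 Gy against 4 Gy it also called 0 members and 0% of all genes, with 28 members at an unadjusted p under 0.05.

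**Figure D5:**
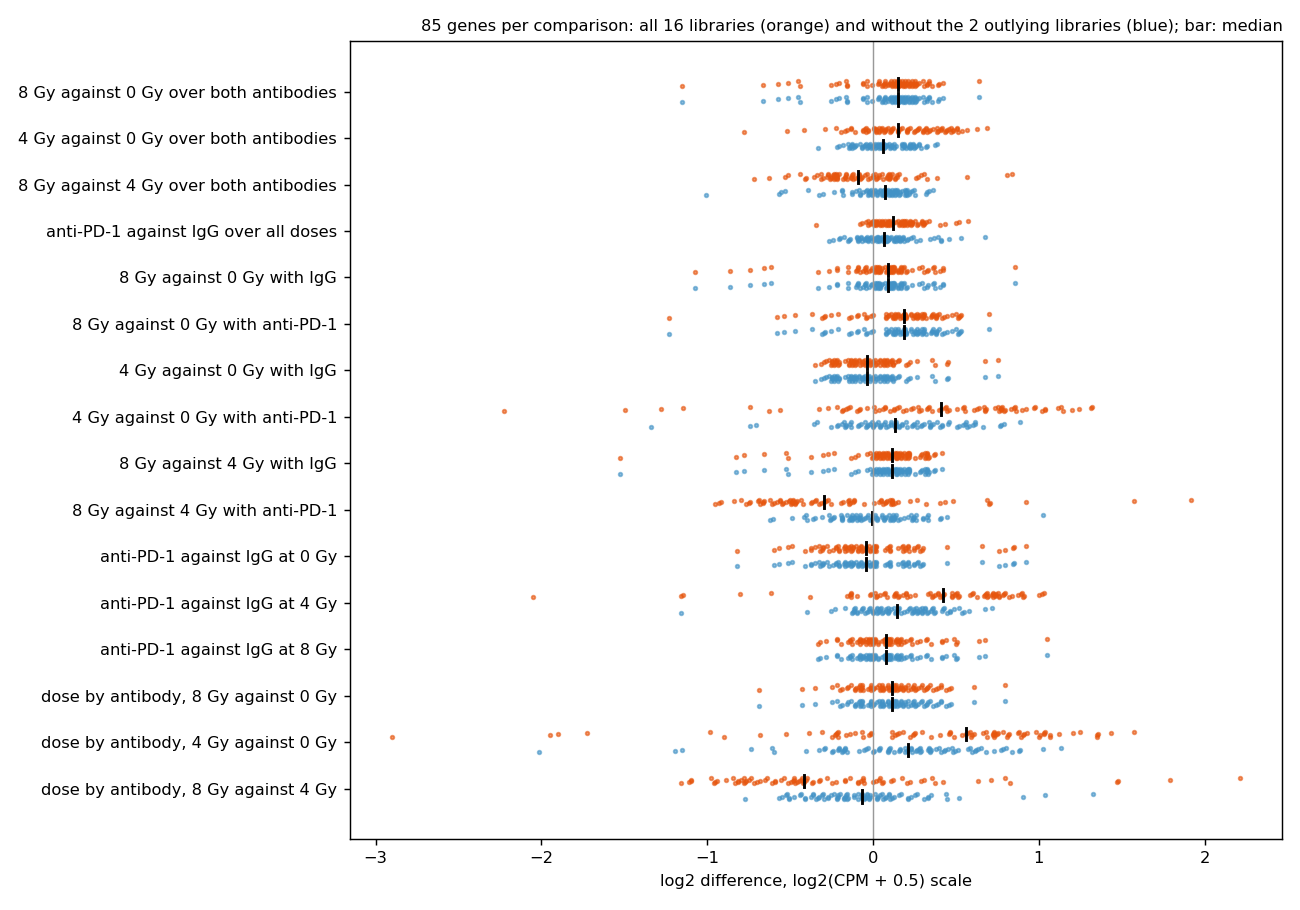
Log2 differences of the 85 genes (points, horizontal axis) in each comparison, with all 16 libraries (orange) and without replicates 2 and 3 of anti-PD-1 at 4 Gy (blue), and medians as black bars. At 4 Gy against 0 Gy with anti-PD-1 the median was 0.41 with all libraries and 0.13 without the 2.

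Members were also looked at by role, and differences between the stalk proteins were not tested. At 4 Gy against 0 Gy with anti-PD-1, Rplp1 and Rplp2 rose (1.25 ± 0.30 and 1.12 ± 0.24). Their scaffold Rplp0 did not pass the limma test (0.24 ± 0.16, adjusted p = 0.245). Without the 2 libraries that stood apart, only replicate 1 was left at 4 Gy. The differences of Rplp1 and Rplp2 were then smaller, at 0.77 and 0.79. Between 8 Gy and 0 Gy none of these 3 was called, with differences of 0.13 for Rplp0, 0.26 for Rplp1 and 0.04 for Rplp2. The proteins known to bind Mdm2 and so to stabilise p53 when ribosome assembly fails are Rpl5, Rpl11, Rpl23 and Rpl26. Between 8 Gy and 0 Gy none of the 4 passed the test, with -0.45 ± 0.19 for Rpl5, -0.16 ± 0.17 for Rpl11, 0.24 ± 0.13 for Rpl23 and 0.20 ± 0.13 for Rpl26. Rpl5 and Rpl11 held 1.07% and 2.31% of the reads on their families, and with copies added their differences were 0.11 ± 0.09 (adjusted p = 0.407) and 0.16 ± 0.12 (adjusted p = 0.369).

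Among the small subunit proteins with known side roles, Rps6, the substrate of S6 kinase, had 67.4, 70.2 and 105 CPM with IgG at 0 Gy and 90.6, 102 and 114 CPM with IgG at 8 Gy. Its difference over both antibodies was 0.36 ± 0.14 (adjusted p = 0.0747). Rps3 also acts in DNA repair and has no copy by the definition used. It had 674 to 903 CPM at 0 Gy and 742 to 902 CPM at 8 Gy (0.07 ± 0.10, adjusted p = 0.651). Rpsa was at 0.33 ± 0.15 (adjusted p = 0.148) and Rps27a at 0.28 ± 0.21 (adjusted p = 0.366).

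Of the paralog pairs, 4 had both genes among the members, and each ratio was compared in 4 ways by exact two-sided permutation within antibody or dose, giving 16 tests. The ratio of Rps27l to Rps27 had log2 values of 2.53 to 2.88 in the 5 libraries at 0 Gy and 3.20 to 3.96 in the 6 at 8 Gy. The groups did not overlap, and the difference of 0.82 had an exact p of 0.005, the smallest those groups allow, and an adjusted p of 0.08. With copies added to both genes it was 0.20 (exact p = 0.115, adjusted p = 0.608). The ratio of Rpl36al to Rpl36a differed by 0.59 in the same comparison (exact p = 0.025, adjusted p = 0.133), and by 0.13 with copies added. Rpl22l1 to Rpl22 and Rpl7l1 to Rpl7 differed by -0.20 (exact p = 0.61) and -0.02 (exact p = 0.76). None of the 16 tests had an adjusted p under 0.05. The dose tests could reach an exact p of 0.005 or 0.01 at the lowest. A single dose difference could therefore not pass after adjustment, however clear.

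Members also differed in how far libraries of a group varied. The residual SD on the log2 scale had a median of 0.24 over the 85. It was largest for Rpl22l1 (0.62), Rps23 (0.59) and Rpl35 (0.44), and smallest for Rpl6 (0.073), Rpl7l1 (0.086) and Rpl10-ps3 (0.088). Rps23 had 3.01 to 26.2% of its family's reads depending on the library, and Rpl6 held 21.3% of its own on average. The genes outside the set that varied most like the members' median over the 16 libraries were AC124742.1 (Pearson r = 0.968), Tmem256 (0.966) and Ndufb7 (0.965, a subunit of respiratory complex I). The points share the 2 libraries that stood apart, so this is a description only.

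Other genes of the translation machinery, taken from lists chosen with earlier results known, gave the following counts. Fau, whose product is cut to release a small subunit protein, had 197 and 150 CPM in anti-PD-1 at 0 Gy and 252, 540 and 512 CPM at 4 Gy. It rose (1.26 ± 0.28, adjusted p = 0.00614 by limma). Without the 2 libraries that stood apart, with only replicate 1 left at 4 Gy, its difference was 0.55. Rack1, a small subunit scaffold for signalling proteins, had 1448 and 1144 CPM and 1177, 1318 and 1223 CPM in those groups (-0.06 ± 0.14, adjusted p = 0.771). Of 19 translation factors and other messages with a pyrimidine start, 0 rose and 2 fell at 8 Gy against 0 Gy (Gas5, -0.35 ± 0.10, and Snhg5, -0.50 ± 0.14, both small nucleolar RNA hosts). With anti-PD-1, at 4 Gy against 0 Gy, 0 of them rose, beside 13.4% of all genes, and 6 fell, beside 25.9%, with a median of -0.29. By limma without the 2 libraries 0 were called, 3 had an unadjusted p under 0.05, and the median was -0.16, beside 0.13 for the members. Of 24 genes of ribosome biogenesis and RNA polymerase I, 2 rose at 8 Gy against 0 Gy (nucleolin, Ncl, 0.38 ± 0.11, and Dkc1, 0.28 ± 0.09) and Nat10 fell (-0.35 ± 0.10). Of 12 regulators, Larp1 (0.28 ± 0.08), Mdm2 and Cdkn1a rose in that comparison and 0 fell, and Myc was at 0.18 ± 0.13 (adjusted p = 0.344). Of 78 mitochondrial ribosomal proteins 4 rose and 4 fell there. The shares of all genes in that comparison were 4.68% and 16.1%. With anti-PD-1, at 4 Gy against 0 Gy, 14 of those 78 rose and 9 fell, with a median of 0.15, and of 78 nuclear respiratory chain subunits 24 rose and 11 fell, with a median of 0.14, beside 13.4% and 25.9% of all genes. On leaving out the 2 libraries limma called 0 of either list, beside 0.16% of all genes, with 9 and 13 at an unadjusted p under 0.05 and medians of 0.04 and -0.0035.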

How the data were processed

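The deposited table gives CPM, to which the authors had added 1e-04, for 30095 genes. STAR and Partek were used with build mm10, per the submitters' processing notes. How reads matching several genes were assigned is not given in the sources used here, nor are versions, annotation or strand. Reads of overlapping genes and of near-identical copies may therefore be shared. Groups and replicate numbers came from the sample titles. Nothing says whether a group's pools were from separate experiments, so their spread, which sets the p-values, may be technical. The S numbers in the titles ran from 13 to 17 at 0 Gy, 26 to 30 at 4 Gy and 31 to 36 at 8 Gy. What they mark is not stated, and dose cannot be told apart from anything that follows them.

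With limma 3.58.1 (R 4.3.3; trend, robust), log2(CPM + 0.5) was fitted for 17546 genes that reached 1 CPM in 2 or more libraries. The model had 6 group means, all 16 libraries and no replicate block, and Benjamini-Hochberg adjustment ran over all genes with a threshold of 0.05. Pooled comparisons average the differences within each antibody or dose. The scale understates changes of low genes. The procedure was tested on simulated data.

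Copies were found with BLAST 2.17.0, by aligning each member's GENCODE M21 coding sequence to transcripts of the listed genes. Adding their CPM to the gene was an alternative chosen after seeing the data. The members and lists were chosen with earlier results of these data known. Genes were named by mean CPM (5 highest, 5 lowest), by p (up to 5 each way in a comparison, or 2 where fewer than 2 were called), by residual SD (3 each way), by likeness to the members' median (3), and from a list of paralogs, stalk proteins and proteins with known side roles. Other alternatives were quantile normalization, other scalings, no filter, other pseudocounts, a replicate block, other models and leaving out libraries. Results that need some items withheld from this text are not reported here.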

Additional observations from a re-analysis of the deposited data

Results flagged for a closer look

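For 13 members the effect of 4 Gy against 0 Gy differed between anti-PD-1 and IgG by limma's test of that difference: it was larger with anti-PD-1 in 10 and smaller in 3. Among the 10, Rpl41 differed by 1.43, Rplp2 by 1.35, Rps26 by 1.35, Rpl29 by 1.57 and Rpsa by 1.21 on the log2 scale. Among the 3, Rpl5 differed by -1.72, Rpl22l1 by -2.90 and Rpl10 by -1.95. With copies added the differences were -0.25 ± 0.19 for Rpl5 (adjusted p = 0.368), -2.80 ± 0.66 for Rpl22l1 (adjusted p = 0.038) and -0.16 ± 0.16 for Rpl10 (adjusted p = 0.503). Without replicates 2 and 3 of anti-PD-1 at 4 Gy 0 members were called.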

How the results depend on the processing

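At 8 Gy against 0 Gy, where 7 members were called, 11 were called with library medians set equal, 4 without the filter, 4 with the replicate block, 1 with copies added and 2 with copies added and without the 2 libraries that stood apart, and 2 to 10 when any 1 library was left out. Setting the medians equal moved the median difference of all genes from -0.09 to 0.02. At 4 Gy against 0 Gy, where 2 were called, the count was 13 with quantile normalization, 5 with medians equal, 8 with CPM over genes other than mitochondrial and haemoglobin ones, and 1 with CPM over non-members, without the filter, with a pseudocount of 0.1 or with copies added. It was 0 with the replicate block, in a fit of only the groups compared, in an additive model of dose and antibody, and in both fits without the 2 libraries, and 0 to 32 with 1 library left out. At 8 Gy against 4 Gy, where 9 were called, it was 4 without the filter, with the replicate block or with copies added, 2 without the 2 libraries, 0 with both changes, and 2 to 24 with 1 left out.

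With IgG, 8 Gy against 0 Gy gave 1 with quantile normalization, 0 with copies added, with or without the 2 libraries, and 0 to 4 with 1 left out, and 8 Gy against 4 Gy gave 0, 0 and 0 to 3. With anti-PD-1, 8 Gy against 0 Gy gave 1 without the 2 libraries and 0 to 1 with 1 left out. Without the 2 libraries, with or without copies added, the count was 0 for 4 Gy against 0 Gy with anti-PD-1, 8 Gy against 4 Gy with anti-PD-1, the antibody comparison at 4 Gy, and the antibody difference in the effect of 4 Gy, which was 20 with quantile normalization. With 1 library left out these ran from 1 to 47, 7 to 49, 0 to 50 and 0 to 44, the antibody difference in 8 Gy against 4 Gy from 0 to 36, and anti-PD-1 against IgG over all doses from 0 to 4.

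Directions turned with copies added, with or without the 2 libraries, for Rpl10 (0.0157 at 8 Gy against 0 Gy, and 0.0489 or 0.0443 at 8 Gy against 4 Gy) and Rps27 (0.1117 at 8 Gy against 0 Gy). With both changes they turned for Rpl35 (0.1046) and Rps27 (0.143) at 8 Gy against 4 Gy. With copies added the ratio of Rps27l to Rps27 was -0.0107 at 4 Gy against 0 Gy and 0.0319 for antibody, and that of Rpl36al to Rpl36a was -0.0823 at 8 Gy against 4 Gy and -0.0018 for antibody. By the genes' own reads, the latter ratio was -0.0613 for antibody without the 2 libraries. With 1 library left out, Rpl22l1 to Rpl22 ran from -0.3813 to 0.0016 and Rpl7l1 to Rpl7 from -0.0495 to 0.0157 at 8 Gy against 0 Gy, and Rpl36al to Rpl36a from -0.0769 to 0.1417 at 8 Gy against 4 Gy. The cause was not tested, beyond what adding reads or omitting libraries does by construction. The 36 correlations of same-numbered deviations ran from -0.546 to 0.442, with 11 over 0.1. Libraries with different numbers were not compared, so these values do not settle whether replicate numbers pair libraries.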
